A study of Homo sapiens with 16 samples.

Results

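Trp53, the gene for the p53 protein, and 9 genes that p53 is known to switch on were measured in every cell type of mammary tumors grown in mice given the PARP inhibitor olaparib or vehicle. The 10 genes were Trp53, Mdm2, Cdkn1a, Ccng1, Bax, Bbc3, Phlda3, Eda2r, Trp53inp1 and Zmat3, out of 32285 genes in the count tables. They were chosen by name, as Trp53 and known targets of p53, with earlier results of these data known, and all 10 were detected. Their unique molecular identifier (UMI) counts were summed over the cells of each deposited cell label in each experiment and given as CPM, the share of all UMIs scaled to 1000000, malignant cells beside host immune and stromal cells.

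p53 is a transcription factor that is held at a low level in unstressed cells because Mdm2, an E3 ubiquitin ligase, marks it for degradation. DNA damage stops this degradation, so p53 activity is set mainly at the level of the protein rather than of the Trp53 transcript, and active p53 switches on genes for cell cycle arrest and for apoptosis as well as Mdm2 itself, which closes a feedback loop. PARP inhibitors trap PARP enzymes on DNA and leave breaks that have to be repaired during replication.

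The tumors were LPA1-T22 and LPA1-T127, mammary tumor lines that each began in a mouse whose mammary epithelium carried an active transgene for LPA1, a receptor for lysophosphatidic acid. Both lines were kept by transplantation and grown in the mammary fat pad of female FVB mice of 6 weeks. All mice carried one or both of these tumors and received vehicle or olaparib at 50 mg/kg daily. Long-term pools (n = 8) mixed tumors of both lines, transplanted alone or together, after 20 days, and short-term T22 pools (n = 4) and short-term T127 pools (n = 4) mixed tumors of 1 line after 4 and 8 days. Each model is 1 transplant line with wild-type Brca1 and Brca2, and its Trp53 status was not given in the sources used here.

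Each pool was a capture of several hashtagged tumors, and no label tied a cell to a tumor, so vehicle and olaparib cells could not be separated. A cell class in an experiment was therefore 1 sample, and no test was made. The range over pools and exact Poisson 95% intervals (counting error only) were used instead. Pools are captures of mixed tumors, so their range does not measure the spread between tumors. The 48824 cells kept had median depths of 9548.5 to 11720.5 UMIs per cell in the long-term pools, 7730 to 8528 in the short-term T22 pools and 22712 to 26017 in the short-term T127 pools. Long-term pools 1, 2 and 3 shared 987 to 3939 cell barcodes per pair, and the deepest copy of each was kept. The authors' labels Malign_0 and Malign_1 had no cell in the short-term T22 pools and Malign_2 and Malign_3 none in the short-term T127 pools, so the first pair was taken as T127 and the second as T22. Krt8 and Krt18, epithelial keratins, were far higher in malignant than in immune cells (Krt18, 758 against 29.7 CPM in the long-term pools), but Epcam, the epithelial adhesion molecule, was at 4.31 CPM and Cdh1, E-cadherin, at 0.619 CPM in T127 malignant cells, below their immune levels of 134 and 18.5 CPM. T127 malignant cells thus carried keratins without these other epithelial markers.

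Most of the targets, but not Trp53 itself, were at least 2-fold higher in malignant than in host cells. A gene was called when its CPM + 1 differed at least 2-fold and its pool values did not overlap between the classes. This rule, like the list of 10 genes, was set with earlier results of these data known. By this rule 6 of the 10 genes were higher in malignant cells in the long-term pools (22.3% of 12731 genes tested were called higher), 7 in the short-term T22 pools (22.2% of 13328) and 7 in the short-term T127 pools (20.4% of 12637). None of the 10 was called lower, where 16.5, 21.3 and 21.7% of all genes were. All 10 passed the filter on low values, a mean of at least 1 CPM over the 2 classes. Eda2r was under 1 CPM in host cells (0.424, 0.573 and 0.391 CPM) and passed only through its malignant level. Its calls are among those counted here. Mdm2, Bbc3, Phlda3, Zmat3 and Eda2r were called in all 3 experiments. With a pseudocount of 10 CPM instead of 1 CPM, 3 genes were called in the long-term, 3 in the short-term T22 and 5 in the short-term T127 pools. Bbc3 lost its call in all 3, Zmat3 and Eda2r in the long-term and short-term T22 pools, Mdm2 in the short-term T22 pools and Ccng1 in the short-term T127 pools. Over all genes this pseudocount gave calls in either direction for 2407 of 12731, 3095 of 13328 and 2900 of 12637. Of these calls 52.8, 49.6 and 46.3% were higher in malignant cells. The median log2 ratio of the 10 genes was 1.33, 1.22 and 1.20, against 0.27, 0.14 and 0.15 over all genes tested. Mitochondrial genes, a sign of cell quality, also took a larger share of UMIs in malignant cells (1.17, 1.77 and 2.57%) than in host cells (0.674, 0.925 and 1.16%), and the part of this in the ratios was not tested.

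**Figure D1:**
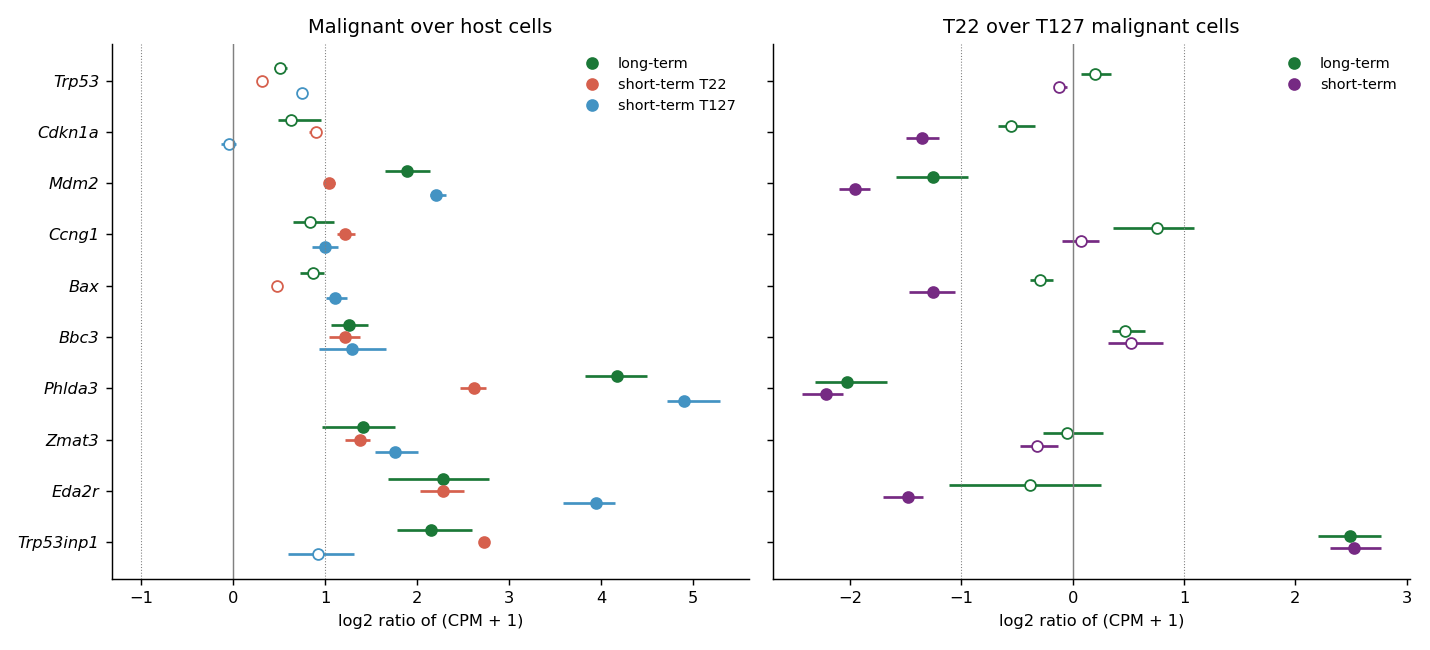
Log2 ratio of CPM + 1 for each gene, malignant over host cells in 3 experiments (left) and T22 over T127 malignant cells in 2 (right), with bars for the range over pools, filled points for called genes and dotted lines at 2-fold. Phlda3 and Eda2r have the largest malignant over host ratios in the short-term T127 pools (4.90 and 3.94), Trp53 stays within 2-fold in every comparison, and Trp53inp1 is the 1 gene called higher in T22 than in T127.

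Trp53 was found in all cell types and varied less between them than most of its targets. In the short-term T22 pools malignant cells gave 135, 136, 136 and 133 CPM and host cells 112, 107, 109 and 107 CPM, and in the short-term T127 pools malignant cells gave 149, 149, 149 and 141 CPM and host cells 86.5, 91.3, 87.8 and 82.9 CPM. Long-term malignant pools ran from 117 through a median of 128 to 135 CPM, and host pools from 77.3 through 90.4 to 92.4 CPM. Malignant pools were above host pools in each experiment, by log2 ratios of 0.51, 0.31 and 0.75, all under the 2-fold limit.

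Across the 21 long-term labels with at least 50 cells, Trp53 spanned 2.72-fold. It was highest in the naive CD8 T cell label (CD8_Tn-CCR7, 184 CPM, pools 97.0 to 225, 81 cells) and lowest in i_CAF, the inflammatory fibroblasts (67.7 CPM). Malign_3 had 150, Malign_2 134, Malign_0 126 and Malign_1 116 CPM, near the lymphocyte labels (118 to 184 CPM), and 10 of 17 host labels were below all 4. The pool ranges of neighbours in this order overlapped for 20 of 20 pairs, so neighbouring places were not resolved, but 6 host labels lay below all 4 malignant labels without overlap. Among macrophages, the dividing label Macro-MKI67 had more Trp53 than Macro-M2 without overlap of pools in all 3 experiments, at 1.41, 1.25 and 1.76 times its level, while its Cdkn1a was 1.01, 0.817 and 0.616 times and its Trp53inp1 0.537, 0.488 and 0.499 times that of Macro-M2. Trp53 of Macro-MKI67 overlapped that of Macro-M1 and Macro-others in the long-term (1.27 and 1.17 times) and short-term T22 pools (1.13 and 1.09 times), and its Cdkn1a was 1.33, 1.37, 1.53 and 1.23 times theirs, without overlap only for the 1.53 times over Macro-M1 of the short-term T22 pools. In the short-term T127 pools Macro-MKI67 had 1.48 times the Trp53 of Macro-others (119 against 80.7 CPM) without overlap and 1.04 times its Cdkn1a with overlap. Dividing T cells (Tprf-MKI67) of the short-term T22 pools had 0.979 times the Trp53 of CD4_Tcm-TCF7 cells, with overlap. Their Cdkn1a was 1.79 times that of CD4_Tcm-TCF7 cells, without overlap. The summed level of 6 proliferation genes in Macro-MKI67 was 1862 CPM against 197 CPM in Macro-M2 in the long-term pools.

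**Figure D2:**
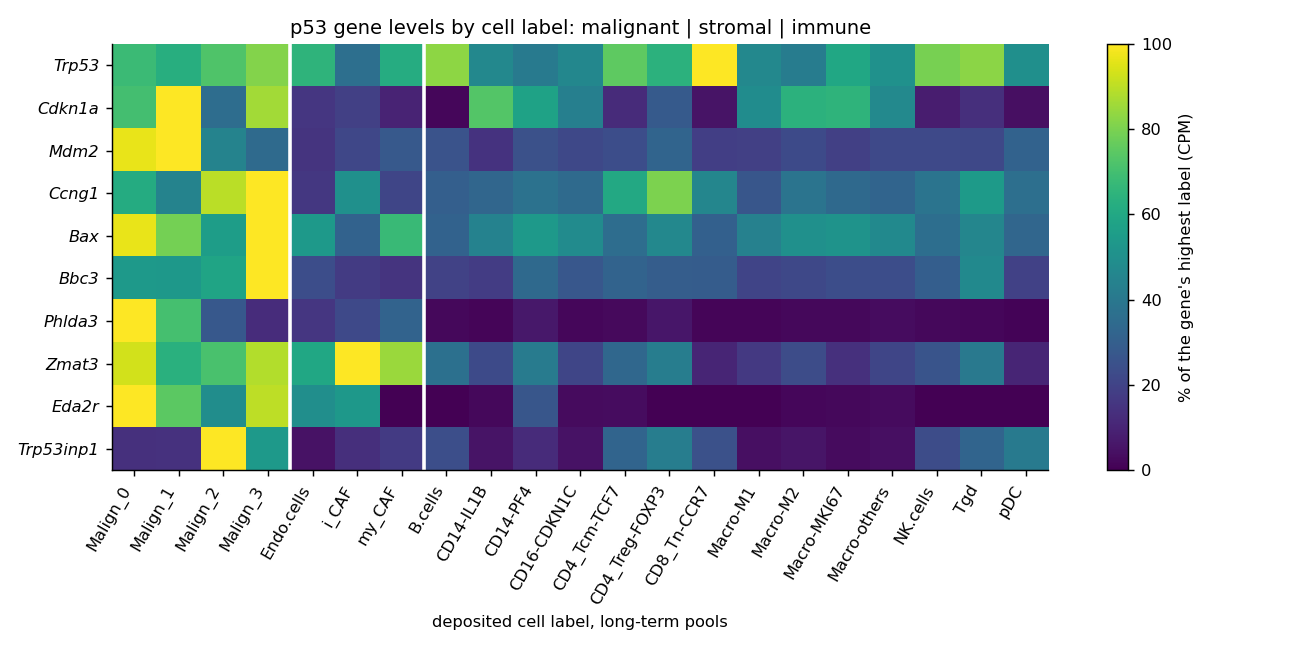
Level of each gene in the 21 long-term labels as a percent of that gene's highest label, malignant, stromal and immune labels from left to right. Trp53 is spread over all labels, Mdm2 and Bbc3 are highest in the 4 malignant labels, Phlda3 is high in Malign_0 (665 CPM) but higher in my_CAF (211 CPM) than in Malign_3 (84.9 CPM), and Cdkn1a is shared by malignant labels and myeloid labels such as CD14-IL1B (484 CPM against 661 CPM in Malign_1).

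Mdm2, the ligase that marks p53 for degradation, was higher in malignant than in host cells in every experiment. Short-term T127 malignant pools gave 332, 362, 382 and 341 CPM and host pools 74.6, 72.2, 79.5 and 76.5 CPM. Short-term T22 malignant pools gave 90.7, 88.4, 93.3 and 88.7 CPM and host pools 43.6, 43.2, 42.7 and 44.1 CPM. Long-term malignant pools ran from 92.9 through 105 to 131 CPM and host pools from 23.9 through 28.9 to 30.1 CPM. The classes did not overlap in any experiment, and the log2 ratios were 2.21, 1.04 and 1.88. The short-term T22 ratio lay at the 2-fold limit, and its call was lost with mitochondrial and ribosomal genes left out of the total. Every malignant label exceeded every host label in each experiment (17, 15 and 12 host labels), although in the long-term pools only 6 of the 17 host labels were below all malignant labels without overlap of pools. The highest host label was CD4_Treg-FOXP3, the regulatory T cells, in the long-term (41.6 CPM) and short-term T127 pools (106 CPM) and CD14-PF4 in the short-term T22 pools (66.1 CPM).

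Cdkn1a, which encodes the cyclin-dependent kinase inhibitor p21, was abundant in macrophages and monocytes as well as in malignant cells. Short-term T127 malignant pools gave 597, 623, 656 and 618 CPM and host pools 655, 636, 673 and 605 CPM, which overlapped (log2 ratio −0.04). Malignant pools of the short-term T22 experiment gave 246, 231, 259 and 238 CPM against 126.8, 130, 135 and 128 CPM in host pools, and long-term malignant pools ran from 416 through 509 to 555 CPM against 225 through 324 to 386 CPM in host pools. Those classes were apart but under 2-fold, with log2 ratios of 0.90 and 0.63.

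The highest host label for Cdkn1a was myeloid in each experiment, although myeloid labels were not all high. In the short-term T127 pools Macro-M2 had the highest level of all labels, 999 CPM (pools 946 to 1091), just above Malign_1 at 905 CPM (859 to 939) without overlap, while Malign_0 had 379 CPM and NK cells 46.0 CPM. In the long-term pools Malign_1 led with 661 CPM (544 to 875), followed by Malign_3 with 569, CD14-IL1B with 484, Malign_0 with 463, Macro-MKI67 with 429 and Macro-M2 with 424 CPM, and B cells were lowest with 11.4 CPM. In the short-term T22 pools CD14-PF4 had 436 and Macro-M2 259 CPM, whereas the dividing T cells (Tprf-MKI67, 154 CPM) lay above Macro-M1 (138) and CD14-IL1B (133) and the myeloid label CD16-CDKN1C (83.8) near CD4_Tcm-TCF7 T cells (85.8), with overlap of pools. Cdkn1a thus spanned 58.0-fold over labels where Trp53 spanned 2.72-fold, and over the 17 long-term host labels the 2 genes ran in opposite directions (Pearson r of log2(CPM + 1) = −0.65, with all labels from the same 8 libraries).

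Ccng1, which encodes cyclin G1, was higher in malignant cells without overlap of pools in every experiment. Short-term T22 malignant pools gave 108, 101, 112 and 98.1 CPM against 44.5, 45.5, 44.1 and 43.1 CPM in host pools (log2 ratio 1.22, called). Short-term T127 malignant pools gave 94.7, 102, 105 and 96.6 CPM against 47.3, 48.1, 57.3 and 43.4 CPM, at the 2-fold limit (log2 ratio 1.00, called), and the call was lost without pool 2 or pool 4. In the long-term pools 46.6 CPM against 25.6 CPM was under the limit (log2 ratio 0.84). The highest host label there was CD4_Treg-FOXP3 with 56.9 CPM, and endothelial cells were lowest with 11.4 CPM. Malign_3 had 70.8 and Malign_1 31.6 CPM, and only 1 of 17 host labels was below all malignant labels without overlap of pools.

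The apoptosis genes differed in how far they set malignant cells apart. Bax, the pore-forming executioner of the mitochondrial pathway, was expressed widely. Short-term T127 malignant pools gave 597, 653, 732 and 626 CPM against 273, 323, 342 and 265 CPM in host pools (log2 ratio 1.11, called), whereas the long-term (499 against 273 CPM, log2 ratio 0.87) and short-term T22 classes (272 against 194 CPM, 0.48) were apart but under 2-fold. Bbc3, which encodes the BH3-only protein PUMA, was low but was above all host labels in every malignant label of each experiment. Without overlap of pools this held for 8 of 17, 14 of 15 and 9 of 12 host labels (long-term, short-term T22 and short-term T127 pools). Malignant cells had 26.6, 31.1 and 21.3 CPM and host cells 10.6, 12.8 and 8.12 CPM in the long-term, short-term T22 and short-term T127 pools (log2 ratios 1.26, 1.21 and 1.29, all called).

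Phlda3, a pleckstrin-homology protein that competes with Akt at the membrane, had the largest ratio of CPM + 1 of the 10 genes in the long-term and short-term T127 pools, where without the added 1 CPM that of Eda2r was larger in the latter (52.0-fold against 31.2-fold). Short-term T127 malignant pools gave 612, 668, 737 and 643 CPM against 21.2, 24.6, 23.7 and 15.5 CPM in host pools (log2 ratio 4.90). Long-term malignant pools ran from 429 through 465 to 500 CPM against 19.6 through 25.8 to 29.4 CPM (4.17), and the short-term T22 values were 142 against 22.3 CPM (2.61). Per UMI, stromal cells carried more Phlda3 (146, 212 and 126 CPM) than immune cells (14.9, 4.61 and 10.2 CPM), although immune cells held 2269 of the 4095 host UMIs of Phlda3 in the long-term, 478 of 2533 in the short-term T22 and 307 of 707 in the short-term T127 pools. In the short-term T22 pools i_CAF had 240 CPM (pools 231 to 257) and exceeded Malign_2 (152 CPM, 143 to 156) without overlap, and in the long-term pools my_CAF, the myofibroblastic fibroblasts, had 211, i_CAF 146 and endothelial cells 104 CPM, against 665 in Malign_0 and 84.9 in Malign_3. Immune cells held 3.21, 3.25 and 1.54% of the malignant Phlda3 level in the long-term, short-term T22 and short-term T127 pools, where for Krt18, which leukocytes lack, the same share was 3.92, 3.39 and 2.59%. For Krt8 it was 3.34, 2.30 and 1.69%. The immune share of Phlda3 was thus no higher than the keratin shares, except against Krt8 in the short-term T22 pools. The part of free RNA from other cells in the immune Phlda3 level was not tested.

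Eda2r, a member of the TNF receptor family, was also nearly absent from immune cells. In the short-term T127 pools malignant cells gave 19.6, 20.9, 20.5 and 20.4 CPM and host cells 0.722, 0.239, 0.240 and 0.366 CPM from 13 UMIs in all (log2 ratio 3.94). The ratios were 2.28 in both the long-term (5.91 against 0.424 CPM, 70 host UMIs) and short-term T22 pools (6.63 against 0.573 CPM, 65 host UMIs), and all 3 were called. i_CAF had 3.78 CPM in the long-term and 6.34 CPM in the short-term T22 pools, within the range of the malignant labels. Immune cells held 2.88, 2.33 and 1.47% of the malignant level, below the Krt18 share in each experiment and below the Krt8 share except in the short-term T22 pools (2.33 against 2.30%). The part of free RNA in the immune Eda2r level was not tested either.

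Trp53inp1, a p53 cofactor that also acts in autophagy, differed between the tumor lines and between lymphocytes and macrophages. Short-term T22 malignant pools gave 309, 324, 313 and 293 CPM against 47.2, 48.1, 45.4 and 43.9 CPM in host pools (log2 ratio 2.72, called), and long-term classes had 57.8 against 12.3 CPM (2.15, called). Short-term T127 malignant pools gave 46.8, 55.3, 58.1 and 51.9 CPM against 30.6, 21.7, 29.5 and 27.9 CPM, apart but under 2-fold (0.92). There CD4_Treg-FOXP3 was the highest label with 236 CPM (198 to 335), followed by pDC, the plasmacytoid dendritic cells, with 146 and CD4_Tcm-TCF7 T cells with 135 CPM, while Malign_1 had 57.9 and Macro-M2 13.4 CPM. In the long-term pools lymphocyte and pDC labels ranged from 40.5 to 74.4 CPM and macrophage labels from 5.39 to 10.0 CPM. Malign_0 and Malign_1 had 24.3 and 25.1 CPM there, below those lymphocyte labels.

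Zmat3, an RNA-binding splicing regulator, was higher in malignant than in host cells in every experiment (16.6 against 5.62, 29.1 against 10.6 and 36.6 against 10.1 CPM; log2 ratios 1.41, 1.38 and 1.76, all called), but fibroblasts had it too. i_CAF was the highest of all long-term labels with 20.6 CPM (11.6 to 26.2), overlapping Malign_0 at 19.1 CPM (12.5 to 24.3), and had 37.1 CPM in the short-term T22 pools. In the short-term T127 pools every malignant label was above every host label, the nearest being endothelial cells with 20.3 CPM.

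**Figure D3:**
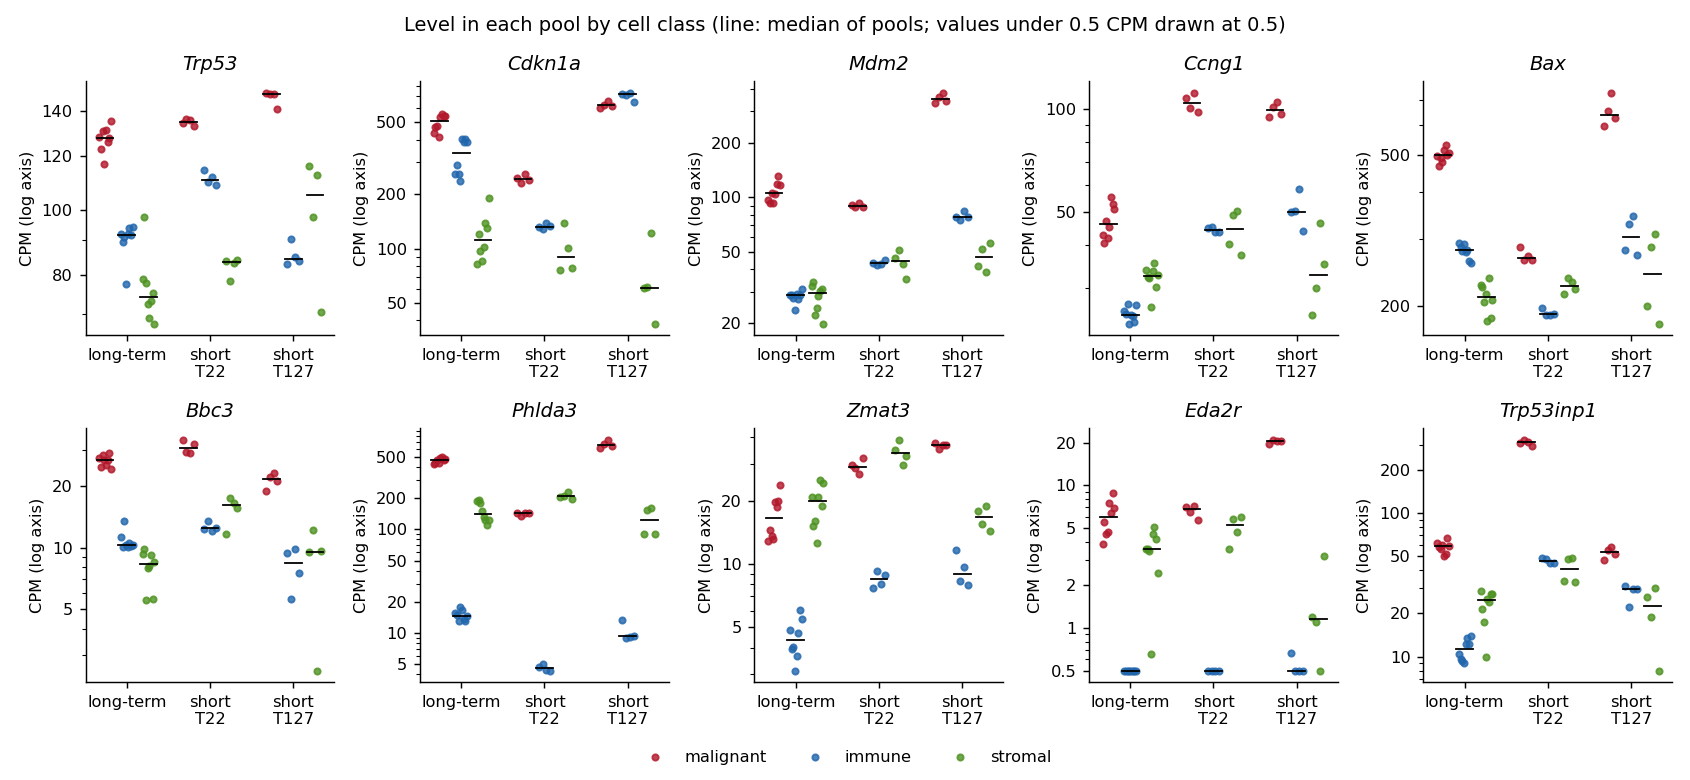
CPM of each gene in every pool (points) for malignant, immune and stromal cells in the 3 experiments on a log axis, with lines at the median of pools and values under 0.5 CPM drawn at 0.5. Malignant points stand above both host classes for Mdm2 in all experiments (332 to 382 CPM in the short-term T127 pools), stromal points exceed malignant points for Phlda3 in the short-term T22 pools (198 to 231 against 135 to 146 CPM), and Cdkn1a of immune cells lies above that of malignant cells of the same pool in all 4 short-term T127 pools.

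The 2 tumor lines were compared next, since the study chose T22 as sensitive and T127 as resistant to olaparib. In the long-term pools, where both lines were captured together, T22 malignant cells (2259) had less Mdm2 and Phlda3 and more Trp53inp1 than T127 malignant cells (4603), so 1 gene was called higher (20.1% of 12242 genes) and 2 lower (16.8%). Mdm2 in T22 ran from 44.8 through 52.2 to 65.2 CPM and in T127 from 109 through 127.2 to 155 CPM (log2 ratio −1.25). Phlda3 ran from 124 through 138 to 170 CPM against 544 through 591 to 636 CPM (−2.03), and Trp53inp1 from 121 through 145 to 165 CPM against 21.8 through 23.9 to 30.2 CPM (2.49). Cdkn1a was lower in T22 (369 against 541 CPM, −0.55) and Ccng1 higher (66.4 against 38.9 CPM, 0.76), both without overlap of pools and under 2-fold. Bax was also lower in T22 (429 against 526 CPM, −0.29) and Bbc3 higher (33.6 against 23.9 CPM, 0.47), without overlap and under 2-fold. Trp53, Zmat3 and Eda2r overlapped, with log2 ratios between −0.39 and 0.20.

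In the short-term pools 1 gene was called higher in T22 (22.4% of 12478 genes) and 5 lower (19.8%). Trp53inp1 was 310 CPM in T22 and 52.9 CPM in T127 malignant cells (log2 ratio 2.53). Mdm2 (90.2 against 354 CPM, −1.96), Phlda3 (142 against 664, −2.22), Cdkn1a (244 against 623, −1.35), Bax (272 against 652, −1.26) and Eda2r (6.63 against 20.3, −1.48) were lower in T22. Trp53 was 135 CPM in T22 and 147 CPM in T127 (−0.12). The short-term lines were in separate libraries, so line, library and depth cannot be told apart, and host cells of the same libraries also differed. T22 malignant cells also had a lower mitochondrial share (1.77 against 2.57%) and more of the proliferation genes (808 against 396 CPM, and 476 against 189 CPM in the long-term pools), and their part in the differences was not tested. Over the 10 host labels with at least 50 cells in both experiments, Cdkn1a was lower in T22 without overlap of pools in 5 and higher in 1, Bax lower in 6, Mdm2 lower in 4, and Phlda3 lower in 3 and higher in 1. Over all 117774 pairs of a tested gene and a label, 13.5% were lower and 11.1% higher without overlap. Trp53 was lower in T22 in 6 labels, all with overlap, and higher without overlap in 3, at 1.33 times in CD16-CDKN1C, 1.31 times in Macro-M2 and 1.26 times in Macro-others. Macro-M2 had 259 against 999 CPM of Cdkn1a, 63.8 against 90.2 CPM of Mdm2 and 205 against 318 CPM of Bax.

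The malignant labels of 1 line also differed from each other. Within T22, Malign_3 had 2.42 times the Cdkn1a of Malign_2 in the long-term (569 against 235 CPM) and 2.39 times in the short-term pools (512 against 214 CPM), higher in 8 of 8 and 4 of 4 pools and without overlap. Bax (1.80 and 2.12 times) and Bbc3 (1.72 and 1.80 times) were higher in Malign_3 without overlap too, while Phlda3 (0.466 and 0.349 times) and Trp53inp1 (0.535 and 0.543 times) were lower. Trp53 differed by 1.12 and 1.09 times and Mdm2 by 0.771 and 0.861 times, the latter with overlap. The targets thus did not move as a block between these labels. Within T127, Malign_1 had 2.39 times the Cdkn1a (905 against 379 CPM) and 1.42 times the Mdm2 (421 against 296 CPM) of Malign_0 in the short-term pools, both without overlap, and 1.43 and 1.03 times with overlap in the long-term pools. Phlda3 was lower in Malign_1 at both times (0.767 and 0.705 times, no overlap). The labels were drawn by clustering the same cells, so these differences are descriptions of the clusters.

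**Figure D4:**
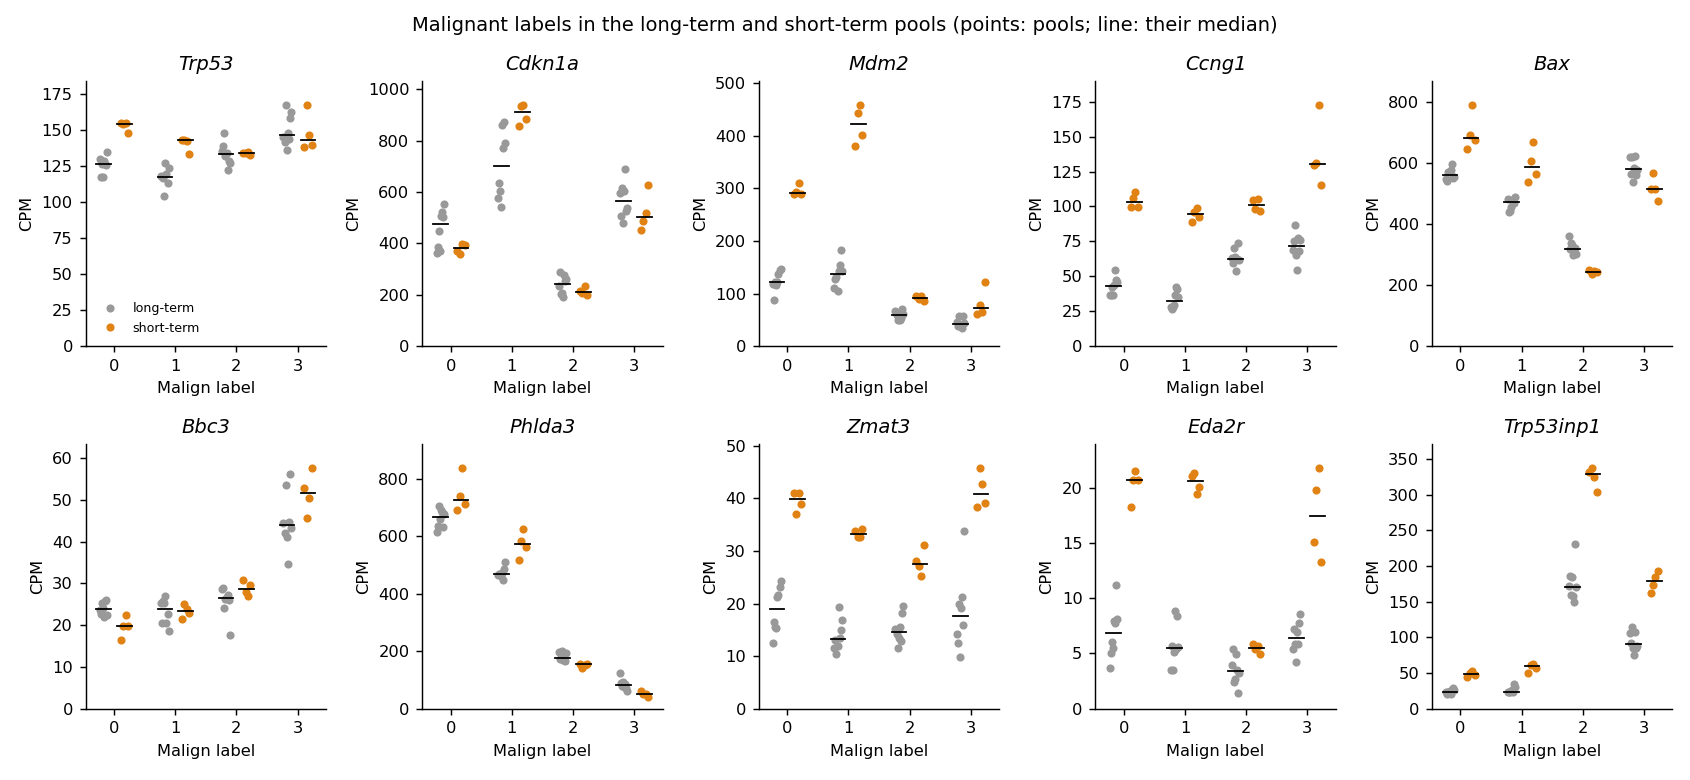
CPM of each gene in the 4 malignant labels, long-term pools in grey (8 per label) and short-term pools in orange (4 per label), with lines at the median of pools. Short-term points lie above long-term points in all 4 labels for Mdm2, Ccng1, Zmat3 and Trp53inp1, and Cdkn1a is higher in Malign_1 than in Malign_0 and in Malign_3 than in Malign_2.

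Against the long-term pools, the short-term pools had more Mdm2, Ccng1, Zmat3 and Trp53inp1 in all 4 malignant labels without overlap, as had 20.2% of the 10002 genes tested. Mdm2 was 2.36, 3.24, 1.57 and 1.76 times its long-term level in Malign_0 to Malign_3, Ccng1 2.38, 2.98, 1.59 and 1.93 times, Zmat3 2.06, 2.54, 1.89 and 2.25 times and Trp53inp1 2.00, 2.31, 1.86 and 1.88 times. Cdkn1a was 0.817 to 1.37 times its long-term level with overlap in all 4 labels, and Trp53 was 1.22, 1.22, 0.999 and 0.975 times. Bax was 1.23, 1.29, 0.753 and 0.886 times in Malign_0 to Malign_3, with overlap only in Malign_3. Phlda3 was 1.12, 1.22, 0.832 and 0.622 times, with overlap only in Malign_0. Eda2r was 2.85, 3.85, 1.57 and 2.68 times, with overlap only in Malign_2. Bbc3 was 0.814 to 1.16 times with overlap in all 4 labels. Host labels differed as well, and the following were chosen after their values were seen. Mdm2 of Macro-M2 was 29.2 CPM in the long-term, 63.8 CPM in the short-term T22 and 90.2 CPM in the short-term T127 pools, and Trp53inp1 of CD4_Tcm-TCF7 T cells was 56.6, 108 and 135 CPM, both without overlap. Time, length of treatment, library and depth cannot be told apart here. Nor can transplantation, since only the long-term pools held tumors of lines transplanted together. The mitochondrial share of UMIs was also higher in the short-term pools in each malignant label (2.66 against 1.31%, 2.47 against 1.03%, 1.77 against 1.01% and 1.80 against 1.24% in Malign_0 to Malign_3), as were the 6 proliferation genes summed (436 against 233, 349 against 121, 810 against 521 and 783 against 408 CPM), and their part in these differences was not tested.

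In single cells of the T127 line the targets were higher in cells with more Mdm2, while Trp53 was nearly level. Each cell was thinned to 10000 UMIs, which left out 9 of 2515 Malign_0 and 4 of 2363 Malign_1 cells of the short-term T127 pools. In Malign_1, mean UMIs per cell from cells with 0 Mdm2 UMIs (290) to cells with at least 20 (87) went from 5.08 to 33.1 for Cdkn1a, from 0.445 to 3.90 for Ccng1 and from 0.293 to 3.15 for Trp53inp1. Trp53 went from 1.32 to 1.28. The 6 proliferation genes summed were at 2.19 in cells with 0 Mdm2 UMIs, higher in cells with 1 to 2 (3.17) and 3 to 5 (2.60), and lower in cells with 6 to 10 (1.14), 11 to 19 (1.42) and at least 20 (0.816). Malign_0 had Cdkn1a from 2.49 to 13.5, Trp53 from 1.60 to 1.65 and the proliferation genes from 4.19 to 0.435 between 385 and 23 cells.

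**Figure D5:**
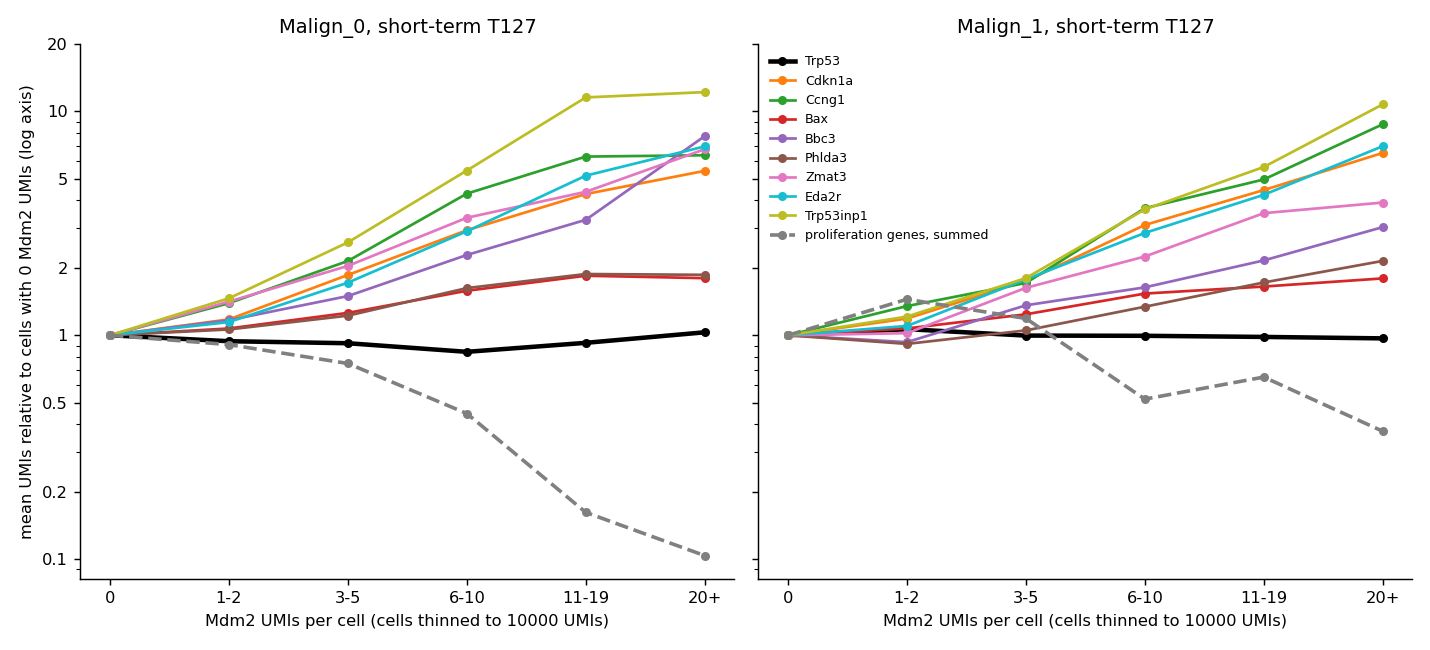
Mean UMIs per thinned cell relative to cells with 0 Mdm2 UMIs, on a log axis, against the number of Mdm2 UMIs in Malign_0 and Malign_1 cells of the short-term T127 pools. Trp53inp1, Ccng1 and Cdkn1a climb with Mdm2 (in Malign_1, Cdkn1a from 5.08 to 33.1 UMIs), Trp53 stays near its starting level (1.32 to 1.28) and the summed proliferation genes of Malign_1 first lie above (3.17 at 1 to 2 Mdm2 UMIs) and then below (0.816 at 20 or more) their starting level of 2.19.

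In T127 cells of the short-term pools the 3 genes whose thinned counts ran most closely with Mdm2 were other members. Among 7813 genes in 2359 Malign_1 cells of the short-term T127 pools, Cdkn1a had the highest Pearson r (0.48, pools 0.45 to 0.51), Ccng1 was in place 2 (0.44) and Trp53inp1 in place 3 (0.40), followed by Plk2 and Sesn2. Phlda3, Eda2r, Bax and Zmat3 were in places 16, 19, 22 and 24 and Bbc3 in place 142, whereas Trp53 was in place 5224 (r = −0.02) and the median over genes was −0.0023. Among 7977 genes in 2506 Malign_0 cells the first 3 places went to Cdkn1a (0.44), Ccng1 (0.41) and Trp53inp1 (0.40), followed by Btg2, and Trp53 was in place 6425. Cdkn1a was also in place 1 in all 4 malignant labels of the long-term pools (0.35, 0.34, 0.25 and 0.23 in Malign_0 to Malign_3), but there Ltc4s was in place 2 in Malign_0 and Rps27l in place 3 in Malign_1. In T22 cells the places varied by label. In the long-term pools Trp53inp1 was in place 2 in both Malign_2 and Malign_3, Ccng1 in places 40 and 3, Bax in places 18 and 80 and Phlda3 in places 980 and 39. In the short-term T22 pools, with 1727 Malign_2 but only 213 Malign_3 cells, Cdkn1a was in places 2 and 1 (0.23 and 0.37) and Trp53inp1 in places 1 and 20 in Malign_2 and Malign_3, whereas Bax was in places 967 and 3629, Phlda3 in places 1378 and 448 and Zmat3 in places 218 and 1903. In Macro-M2, which shares the libraries and has Cdkn1a at 259 to 999 CPM, it was in places 5, 21 and 46 (r = 0.11, 0.25 and 0.12 in the long-term, short-term T22 and short-term T127 pools). Mdm2 of these Macro-M2 cells had means of 0.286, 0.664 and 0.823 UMIs per thinned cell. Its means were 3.14 and 4.60 in short-term T127 Malign_0 and Malign_1 cells and 0.449 in long-term Malign_3 cells. The part of these means in r was not tested. Thinning left out 1355 of 3567, 102 of 670 and 445 of 1174 Macro-M2 cells. Points were cells of the same libraries and the same thinned depth, and these values are descriptions.

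Mdm2 was also uneven between cells. In short-term T127 Malign_1 cells its variance was 13.1 times its mean (pools 9.20 to 16.5), the highest cell had 117 of 10000 UMIs, and the top 5% of cells held 33.1% of all Mdm2 UMIs, while for Trp53 the variance was 1.11 times the mean and the share was 16.4%, at a lower mean (1.35 against 4.60 UMIs per thinned cell). Cdkn1a had a similar ratio in these cells (13.8 times) at a higher mean (9.78 UMIs per thinned cell). Its top 5% of cells held a smaller share, 23.8% of its UMIs. For Mdm2 the ratio was 4.91 in short-term T127 Malign_0 cells, 3.01 and 2.94 in long-term Malign_0 and Malign_1 cells and 1.33 to 2.08 in T22 labels, at lower means (0.449 to 3.14 UMIs), with which this ratio can change. The share held by the top 5% of cells was 25.0 to 30.3% in the other malignant labels and 34.1, 33.7 and 27.8% in Macro-M2 of the long-term, short-term T22 and short-term T127 pools. The 87 Malign_1 cells (15 to 28 per pool) with at least 20 Mdm2 UMIs were set against the other cells of the label. This limit was chosen after the values were seen and marks a range rather than a type, with 56 cells just under it (15 to 19 UMIs) and 29 just over it (20 to 24 UMIs). Of the other 9 members 7 were called higher in these cells (1.5% of 11182 genes were) and 0 lower (3.02%). The cells are part of those ranked above by r with Mdm2, so these calls are not separate from that ranking. Cdkn1a was 3284 against 828 CPM, Ccng1 363 against 85.3, Trp53inp1 305 against 49.8, Eda2r 82.6 against 18.4, Zmat3 90.1 against 31.5, Bbc3 58.4 against 22.2 and Phlda3 1128 against 553 CPM. Bax (887 against 586 CPM) and Trp53 (132 against 141 CPM) were not called. Phlda3 was at the 2-fold limit, and its call was lost without pool 2 and with a limit of 10 Mdm2 UMIs.

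In Malign_0 the 23 cells (5 to 7 per pool) with at least 20 Mdm2 UMIs had 6 of the other 9 members called higher (1.76% of 11171 genes) and 0 lower (7.18%). These calls too are not separate from the ranking of the same cells. Cdkn1a was 1443 against 370 CPM, Ccng1 421 against 101, Bbc3 89.4 against 18.9 and Trp53inp1 226 against 47.1 CPM, and Trp53 was 150 against 153 CPM. Cells near the limit numbered 33 below it and 12 above it. The summed proliferation genes were lower in the high-Mdm2 cells of both labels, at 124 against 356 CPM in Malign_1 (1 of 4 pools was higher) and 50.1 against 440 CPM in Malign_0 (0 of 4). The labels do not give which of these cells came from treated tumors, and the part of olaparib in the high-Mdm2 cells was not tested.

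A second list of 36 other p53 pathway genes gave less one-sided counts. In malignant against host cells 13 of 34 tested were called higher and 3 lower in the long-term pools, 17 and 2 of 36 in the short-term T22 pools and 10 and 4 of 34 in the short-term T127 pools, with median log2 ratios of 0.48, 0.85 and 0.02. Over all genes 22.3, 22.2 and 20.4% were called higher and 16.5, 21.3 and 21.7% lower. Arrest genes were called higher in 4, 5 and 2 of 7, apoptosis genes in 3 of 8, 5 of 9 and 3 of 9, regulators in 2 of 9, 4 of 10 and 2 of 8, and repair and metabolism genes in 4, 3 and 3 of 10. Called lower were 1, 1 and 1 of the arrest genes, 1, 1 and 2 of the apoptosis genes (median log2 ratio −0.28 in the short-term T127 pools), 0 regulators and 1, 0 and 1 of the repair and metabolism genes. Perp, a desmosomal apoptosis effector, led in each experiment (633 against 16.5, 1157 against 16.1 and 267 against 4.66 CPM), and is also a gene of epithelia. Sfn, the epithelial arrest protein 14-3-3 sigma, was among the leading 3 in the long-term (55.9 against 1.56 CPM) and short-term T22 pools (72.4 against 1.80 CPM). Trp63, the p53 family member of basal epithelium, was there in the short-term T22 pools (152 against 2.92 CPM), and Cdkn2a, whose ARF product holds back Mdm2, in the short-term T127 pools (461 against 9.39 CPM). Pmaip1, which encodes the BH3-only protein NOXA, went the other way, with 2.08 against 67.6 CPM in the long-term and 0.460 against 63.1 CPM in the short-term T127 pools.

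Between the lines the same list had more genes higher than lower in T22, unlike the members. In the long-term pools 13 of 35 were called higher and 1 lower in T22, and in the short-term pools 14 and 3 of 36, with median log2 ratios of 0.82 and 0.65 where the 10 members had −0.17 and −0.79 and all genes 0.04 and −0.01. Over all genes 20.1 and 22.4% were called higher and 16.8 and 19.8% lower. Trp63 was 52.4 against 0.459 CPM in the long-term and 152 against 0.210 CPM in the short-term pools. Fas, the death receptor, was 62.9 against 0.868 and 70.0 against 0.682 CPM. Plk2, a polo-like kinase, was in place 3 in the long-term pools (195 against 15.8 CPM), and Chek2, a checkpoint kinase that phosphorylates p53, was in place 3 in the short-term pools (31.4 against 3.55 CPM).

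Over the 21 long-term labels Trp53 and Cdkn1a had a Pearson r of −0.42. The genes whose log2(CPM + 1) ran most like that of Trp53, among 11794 genes, were Nop10, Ptcd3, Arfrp1, Dkc1 and Snrnp70 (Pearson r 0.93 to 0.88). For Cdkn1a they were Gsto1, Med29, Ptpmt1, Sectm1a and Trps1 (0.91 to 0.86), and for Mdm2 Srp14, Map2k2, Amn1 and Sdhaf4 (0.94 to 0.90). Among the members, Phlda3 and Zmat3 ran together (r = 0.87), and Mdm2 and Phlda3 did so over all labels (0.73) but not over the 17 host labels (0.14). All labels came from the same 8 libraries and differed in depth, so these values are descriptions.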

How the data were processed

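Single-cell RNA-seq (10x 3′ v3.1) was read from 16 pools. The authors made the deposited counts with Cell Ranger 6.0.0 (GRCm38, introns counted), removed low-quality cells and, with Scrublet, doublets, and named clusters from markers and copy number. Kept cells with fewer than 1000 detected genes made up 10.0, 15.8 and 2.27% of the long-term, short-term T22 and short-term T127 cells. A deposited normalized table of a subset of genes was not used. UMI counts were summed per label, class and pool and divided by the summed UMIs to give CPM. Ratios used a pseudocount of 1 CPM, a 2-fold limit and a mean of at least 1 CPM over both classes, and were computed on all genes after a check on simulated data. Named were all 10 members, the 3 called pathway genes with the largest ratio per comparison and the 5 genes most like Trp53, Cdkn1a and Mdm2; Plk2, Sesn2, Btg2, Ltc4s and Rps27l in the cell rankings were chosen after their values were seen. For Mdm2, 1 of the 5 is not reported here. The members, lists and call rule were chosen with earlier results of these data known. Software was numpy 2.4.6 and pandas 2.3.3 with matplotlib 3.10.9 and scipy 1.17.1 under Python 3.11.15. Alternatives were shared barcodes, pools left out, cell filters, cell weighting, denominator, pseudocount, low-value filter and fold limit.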

Additional observations from a re-analysis of the deposited data

Results flagged for a closer look

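Of 110 groups of pools checked (each member in each class and experiment), 7 held 1 pool that stood apart from the others, and chance flags about 1 group in 20. Zmat3 of long-term T22 malignant cells was 26.4 CPM in pool 8, where the other pools had 12.1 to 17.2 CPM. Trp53 accounted for 4 of the 7. It was 77.6 CPM in immune cells of long-term pool 4 (others 89.4 to 94.2), 97.4 CPM in stromal cells of long-term pool 2 (others 67.7 to 78.9), 78.3 CPM in stromal cells of short-term T22 pool 2 (others 83.4 to 84.2) and 141 CPM in malignant cells of short-term T127 pool 4 (others 148.7 to 149.3). Bbc3 of immune cells was 13.5 CPM in long-term pool 3 (others 10.0 to 11.3), and Phlda3 of immune cells was 13.4 CPM in short-term T127 pool 1 (others 8.96 to 9.36).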

How the results depend on the processing

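A pseudocount of 10 CPM moved the counts of genes called higher in malignant than in host cells from 6 to 3 in the long-term pools (Bbc3, Zmat3 and Eda2r lost) and from 7 to 3 in the short-term T22 pools (Mdm2, Bbc3, Zmat3 and Eda2r lost), since it shrinks the ratios of low genes. With it 5 were called in the short-term T127 pools, and over all genes the calls went from 4941 to 2407, 5802 to 3095 and 5320 to 2900 in the long-term, short-term T22 and short-term T127 pools, and from 4528 to 2163 and 5264 to 2773 for T22 against T127 in the long-term and short-term pools. Leaving out 1 pool at a time gave 6 to 6, 7 to 7 and 6 to 8 genes against host cells (in the short-term T127 pools Ccng1 was lost without pool 2 or pool 4 and Trp53inp1 gained without pool 1), 3 to 3 and 6 to 6 for T22 against T127, and 6 to 7 and 6 to 6 in the high-Mdm2 cells of Malign_1 and Malign_0. With mitochondrial and ribosomal genes left out of the total Mdm2 lost its call in the short-term T22 pools. No called ratio turned direction. Of the other values, 71 of 73 counts of called members stayed within 1.5 times, 707 of 730 log2 ratios kept their side of the call and 1100 of 1230 levels moved by less than 1 SD over pools. Most of the levels that moved did so with mitochondrial and ribosomal genes left out of the total (80 of 110) or with the mean of per-cell CPM (35 of 110). Added after seeing the data, leaving out long-term pools 1 to 4 again gave 6 and 3 genes, and 17 of 90 correlations over cells moved, all without thinning, where they were larger in size (Mdm2 with Cdkn1a in short-term T127 Malign_1 cells, 0.59). The depth of host cells limits Eda2r, which rests on 13 to 70 host UMIs. No paired analysis was possible between experiments because their pools are separate captures. Within a pool the classes share a capture and were paired by pool, without a test. The call rule asks for pool values without overlap, so a called ratio has the same direction in every pool by definition. For malignant against host cells that is 8 of 8 or 4 of 4 pools. For T22 against T127 cells of the long-term pools it is 8 of 8, and these counts add no support.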
